A study of Homo sapiens with 12 samples.

Results

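The culture described here, called the active culture, was the 1 on the Notch ligand Jagged1 without inhibitor, in DAOY cells targeted at NOTCH2. It was read against the 3 other cultures of the same cells. Its library was chosen by label alone, as NOTCH2KO cells grown on Jagged1 and given no inhibitor, and it was 1 of the 4 NOTCH2KO libraries and of the 12 libraries of the series. DAOY is an established human medulloblastoma cell line. In the NOTCH2KO line NOTCH2 had been targeted with CRISPR/Cas9, and the study showed the loss at the protein level by Western blot. The active culture was grown on plates coated with Jagged1, a Notch ligand, with the solvent DMSO for 12 h. The 3 other NOTCH2KO cultures were grown on plates coated with the control protein Fc with DMSO, on Fc with DAPT for 12 h, and on Jagged1 with DAPT for 12 h. DAPT is an inhibitor of γ-secretase, which was thus left uninhibited on Fc with DMSO too. The wild-type cells (WT) and the NOTCH1KO cells, targeted at NOTCH1 by the same method, were grown in the same 4 cultures and serve as the comparison. All cultures shared the serum-containing growth medium. There was a single library for every genotype in every culture, with no replicate.

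Notch receptors are cut when a neighbouring cell or a coated surface presents a ligand such as Jagged1. The last cut, by γ-secretase, frees the intracellular domain, which enters the nucleus, binds the DNA-binding protein CSL (RBPJ) and switches on target genes. Genes of the HES and HEY families, which encode transcriptional repressors, are the best known of these targets, and JAG1 is itself often raised by active Notch. NOTCH2 and NOTCH1 are separate receptors that share this pathway, so that a cell without NOTCH2 may still hold other receptors that Jagged1 can engage.

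As examples, the 250 bases before the start of 3 effector genes are given 5′ to 3′ on the strand of each gene. They come from RefSeq promoters of the build GRCh38.p14. HES1 lay at chr3:194135898-194136147 on the plus strand, HES4 at chr1:1000098-1000347 on the minus strand and HEY2 at chr6:125749382-125749631 on the plus strand. Capitals mark TGGGAA, the core of the CSL motif, or its reverse complement TTCCCA, which were searched on both strands.
HES1: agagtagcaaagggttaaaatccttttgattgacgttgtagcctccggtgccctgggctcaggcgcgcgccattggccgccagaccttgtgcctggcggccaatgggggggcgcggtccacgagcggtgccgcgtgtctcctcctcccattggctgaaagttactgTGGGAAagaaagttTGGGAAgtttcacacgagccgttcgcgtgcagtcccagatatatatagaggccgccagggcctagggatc
HES4: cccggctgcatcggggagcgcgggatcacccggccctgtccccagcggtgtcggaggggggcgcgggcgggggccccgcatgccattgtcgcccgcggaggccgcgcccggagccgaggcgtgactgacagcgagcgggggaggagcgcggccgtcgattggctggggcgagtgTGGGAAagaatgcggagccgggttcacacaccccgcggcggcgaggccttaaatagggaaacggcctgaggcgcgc
HEY2: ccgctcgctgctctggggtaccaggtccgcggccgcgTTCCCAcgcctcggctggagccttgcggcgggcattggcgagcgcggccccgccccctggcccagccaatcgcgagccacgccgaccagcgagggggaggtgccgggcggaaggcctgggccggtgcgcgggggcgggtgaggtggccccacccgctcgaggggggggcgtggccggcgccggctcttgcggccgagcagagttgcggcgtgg
HES1 held the letters 2 times in the same orientation, 84 to 79 and 70 to 65 bases before the start, HES4 held them 1 time, 76 to 71 bases before it, and HEY2 held them 1 time on the opposite strand, 213 to 208 bases before it. The same windows of CHRNA9, IL11 and JAG1 held 0 matches, which says only that these letters are not in these windows. Of 35116 RefSeq windows of this length, 7321 (20.8%) held the letters. Of 12 Notch effectors and feedback genes with a window 6 held them, so that the 3 shown do not stand for all. A match is a description of the sequence and not of binding.

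Levels are given in TPM, a unit that corrects for gene length and sums to the same total in every library. Differences in log2 were taken after adding 1 to TPM, which shrinks them for genes at low levels, and folds are ratios of TPM itself. The NOTCH2KO libraries held between 20.8 and 22.4 M reads, which set the step of 1 read at 0.0947 to 0.109 TPM for a gene of 1 kb. A gene was said to lie above or below the range if its level in the active culture was higher or lower than in each of the 3 other NOTCH2KO cultures. An exact permutation test of 1 library against 3 cannot give a one-sided p under 0.25, so the range rule is a description. In bulk RNA, fewer cells that express a gene and less RNA per cell cannot be told apart.

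Of 63677 gene identifiers, 17621 had a mean TPM of at least 1 over the 12 libraries and were examined. This mean took in the active cultures, so a gene could pass through a high level in the active culture alone. The counts above the range, and the later calls of higher genes, include such genes. In NOTCH2KO 6512 of the 17621 genes (37.0%) lay above the range by any amount and 4206 (23.9%) below it. These shares depended on the scaling. The active culture had the highest median level of the 4 libraries, 0.06 in log2 over Fc with DMSO, and once all libraries were centred on their medians 4922 genes lay above the range and 5674 below it. Genes above thus made up 60.8% of those outside the range as deposited and 46.5% after centring. By a margin of at least 1.5-fold of TPM + 1, 278 genes (1.58%) lay above and 294 (1.67%) below, and 124 (0.704%) and 183 (1.04%) did so both by TPM and by read coverage, which depends less on which transcript length a gene was given. After centring 1.20% of the genes lay above and 2.05% below by 1.5-fold, and with FPKM in place of TPM 0.857% and 1.44% did. Leaving out a comparison culture can only keep or narrow the range, so the counts by 1.5-fold could not fall and are no check of stability. They were 515 above and 456 below without Fc with DMSO, 429 and 421 without Fc with DAPT, and 560 and 546 without Jagged1 with DAPT. In WT the corresponding shares by any amount were 32.0% above and 28.4% below, by 1.5-fold 2.64% and 2.66%, and by both measures 1.74% and 1.53%. In NOTCH1KO they were 20.5% and 26.3%, 1.93% and 2.26%, and 1.26% and 1.38%.

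A limma model over all 12 libraries, in which each genotype's 3 other cultures gave the spread with 6 residual degrees of freedom, called 7 genes higher (0.0397%) and 12 lower (0.0681%) in the NOTCH2KO active culture at an adjusted p under 0.05. Without adjustment 1176 genes had a p under 0.05. Leaving out the WT library on Jagged1 with DAPT, or the NOTCH1KO library on Fc with DAPT, left 4 genes higher, and leaving out the NOTCH2KO library on Fc with DAPT left 6 higher and 6 lower. The spread counts differences between plates and drugs as error and does not measure variation between independent cultures. None of the 4 markers of the culture, HES1, CHRNA9, IL11 and JAG1, was among the 19 calls.

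The targeted gene was examined first. NOTCH2 (GRCh37 chromosome 1, 120454176 to 120612240) stood at 48.0 TPM on Fc with DMSO, 41.6 on Fc with DAPT, 52.7 on Jagged1 with DAPT and 60.5 in the active culture of NOTCH2KO. All 4 levels were under the lowest of WT, where NOTCH2 ranged from 74.9 to 94.9, and of NOTCH1KO, where it ranged from 87.2 to 111. The transcript was thus lower but present, and a gene-level value does not check an edit that leaves the transcript in place. From here on the values of the other NOTCH2KO cultures follow one order, which is Fc with DMSO, then Fc with DAPT, then Jagged1 with DAPT. NOTCH1, the other receptor targeted in the study, stood at 4.13, 4.38 and 3.97 and at 3.36 in the active culture, which was the lowest of the 4. NOTCH3 stood at 0.246, 1.33 and 0.186 and at 0.237 in the active culture, inside the range. The active cultures of WT and NOTCH1KO had 16.2 and 7.0 TPM of NOTCH3. The difference of its response between NOTCH2KO and WT was -3.79 ± 0.96 (SE) and did not pass the limma test (adjusted p = 0.457). NOTCH4 was at most 0.367 TPM in NOTCH2KO and was not among the genes examined.

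All 4 markers were highest in the active culture, and 2 of them, HES1 and CHRNA9, lay more than 1.5-fold of TPM + 1 above the range. HES1 (chromosome 3, 193853934 to 193856521), the repressor whose promoter is shown above, stood at 40.2, 27.0 and 35.7 TPM and at 65.4 in the active culture, 1.63 times the highest of the others. CHRNA9 (chromosome 4, 40337346 to 40357234), which encodes a nicotinic acetylcholine receptor subunit, stood at 2.85, 1.09 and 1.18 and at 5.66, 1.98 times the highest. By coverage its distance above the range was 0.57 in log2, just under the 1.5-fold margin.

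JAG1 (chromosome 20, 10618332 to 10654694), the ligand gene, stood at 82.6, 50.1 and 54.8 TPM and at 121 in the active culture, 1.46 times the highest. Another expressed record of the same name overlapped this one on the same strand. The record with the higher mean TPM was used, and the values of the other are not given. IL11 (chromosome 19, 55875757 to 55881831), a cytokine of the IL6 family, stood at 74.5, 30.3 and 21.1 and at 87.7, 1.18 times the highest. For each of the 4 genes Fc with DMSO came next to the active culture and both cultures with DAPT came lower. IL11 and JAG1 were therefore separated from the uninhibited Fc culture by little, 0.23 and 0.54 in log2, and from both DAPT cultures by more, at least 1.5 and 1.13.

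As a difference between the active culture and the mean of the 3 others, the response in NOTCH2KO was 0.93 ± 0.42 (SE) for HES1, 1.36 ± 0.61 for CHRNA9, 1.25 ± 1.08 for IL11 and 0.97 ± 0.78 for JAG1. Their limma adjusted p values lay between 0.748 and 0.826. In WT the response was 1.31, 1.72, 1.99 and 2.57 and in NOTCH1KO 1.10, 1.19, 1.92 and 2.39 in the same order. HES1 and CHRNA9 thus had responses in NOTCH2KO near those of the other genotypes, while those of IL11 and JAG1 were smaller. Levels were another matter for CHRNA9, at 5.66 TPM in the active culture against 27.2 in WT and 8.20 in NOTCH1KO. HES1, at 65.4, lay between 83.6 in WT and 55.0 in NOTCH1KO. The difference for IL11 between NOTCH2KO and WT was -0.74 ± 1.52 (SE). The difference for JAG1 between NOTCH2KO and WT was -1.60 ± 1.10 and did not pass the limma test (adjusted p = 1.00). JAG1 levels in the other NOTCH2KO cultures, 50.1 to 82.6 TPM, were above those of WT, 14.3 to 46.9, and of NOTCH1KO, 12.9 to 46.2, while the active cultures stood at 121, 145 and 110.

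**Figure D1:**
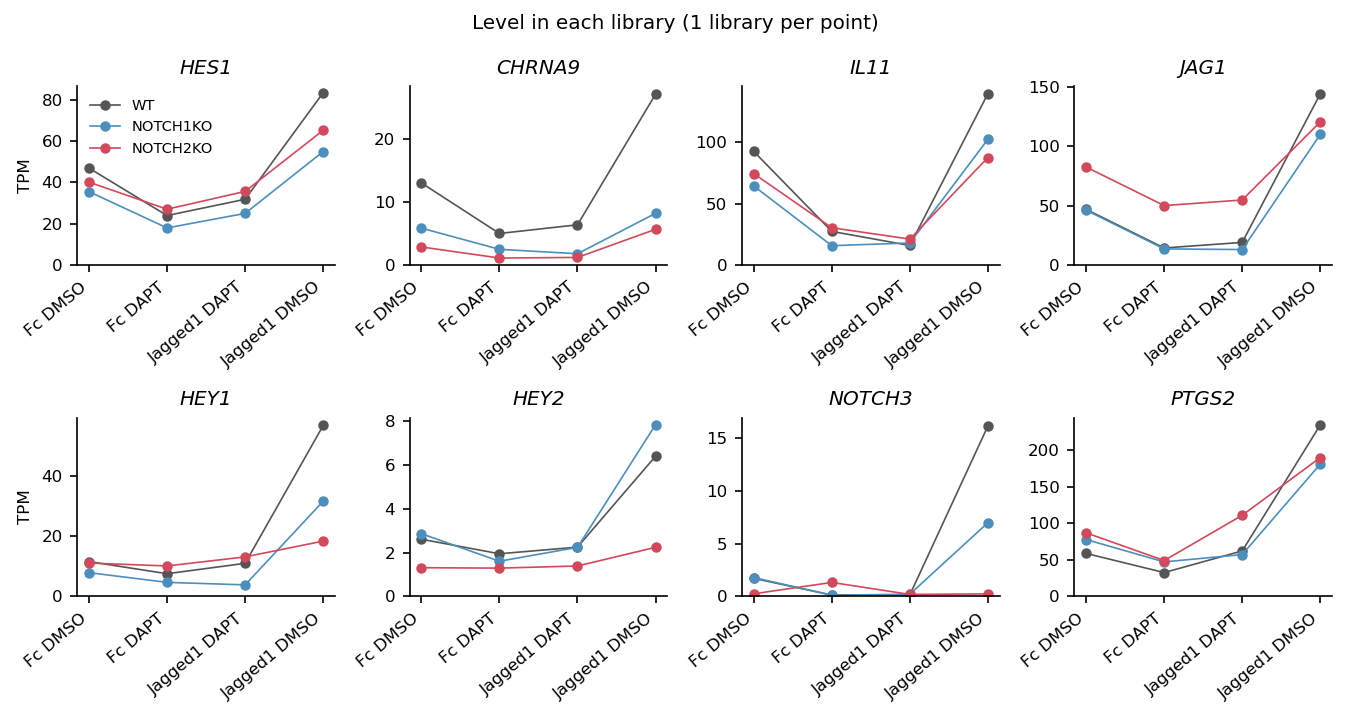
Level in TPM (y axis from 0) of the 4 markers, HEY1, HEY2, NOTCH3 and PTGS2 by culture (x axis), with 1 point per library and lines joining the 4 libraries of each genotype, WT in grey, NOTCH1KO in blue and NOTCH2KO in red. HES1, CHRNA9, IL11 and JAG1 were highest in the active culture of NOTCH2KO, whereas NOTCH3 stood at 0.237 TPM there against 16.2 in the WT active culture.

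Of the 10 Notch effectors and feedback genes examined, 6 lay above the range and 1 below it, against 37.0% and 23.9% of all genes, and only HES1 passed the 1.5-fold margin among these 10. The median response of the list was 0.40 in NOTCH2KO, against 0.05 over all genes, and 0.90 and 0.74 in WT and NOTCH1KO. HEY1, a repressor of the HEY family, stood at 11.0, 10.1 and 13.1 TPM and at 18.3 in the active culture. The active cultures of WT and NOTCH1KO had 56.6 and 31.5 TPM of it. The response of HEY1 was 0.65 in NOTCH2KO against 2.41 and 2.39, and the difference from the mean of both was -1.75 ± 0.42 (limma adjusted p = 0.384).

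HEY2 stood at 1.31, 1.29 and 1.39 TPM and at 2.24 in the active culture, and HES4 at 1.60, 1.81 and 1.15 and at 2.50. The basic helix-loop-helix repressor genes BHLHE40 and BHLHE41 lay above the range by 0.27 and 0.22 in log2. HES6, which encodes a HES family protein that opposes HES1, was below it, at 3.81, 3.67 and 3.18 TPM and at 2.08 in the active culture. Both feedback genes that are usually raised with Notch lay inside the range. NRARP, which encodes a protein that limits Notch signaling, stood at 4.0, 3.02 and 2.59 and at 3.19, and DTX1, a ubiquitin ligase gene, at 2.40, 2.56 and 2.67 and at 2.50. Their responses in NOTCH2KO were 0.01 and -0.02, against 0.80 and 1.01 in WT and 0.34 and 1.12 in NOTCH1KO.

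Among the 5 ligand genes examined 3 lay above the range and 2 below, and none passed the 1.5-fold margin. JAG2 was at 2.18 TPM in the active culture against 2.78 to 3.92 in the others, and DLL1 at 4.43 against 5.22 to 5.91. Of 32 genes for the processing and nuclear machinery of Notch 16 lay above and 7 below, with a median response of 0.20. ADAM10, the protease of the first cut, stood at 104, 95.8 and 119 TPM and at 153 in the active culture, and EP300, a coactivator, at 21.1, 21.1 and 23.4 and at 28.8. MFNG, a glycosyltransferase gene that modifies Notch receptors, was the only member past 1.5-fold by TPM, at 7.31, 7.27 and 6.84 and at 4.01 in the active culture. MFNG was also below the range in WT and NOTCH1KO, where the response was -0.96 and -1.06, against -0.70 in NOTCH2KO. Of 20 other genes reported to respond to Notch, 7 lay above and 3 below, among them SNAI2, a repressor gene of epithelial-mesenchymal transition, at 59.0, 59.1 and 24.6 and at 88.4.

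Cytokine genes as a group lay near the background in NOTCH2KO. Of 26 NF-κB targets and cytokines, 10 lay above the range and 5 below, close to the shares over all genes, and none by 1.5-fold. Their median response was 0.02, whereas in WT 19 lay above with a median of 0.55 and in NOTCH1KO 20 with a median of 0.64. Over all genes 32.0% lay above in WT and 20.5% in NOTCH1KO. IL8, a neutrophil chemokine gene, stood at 923, 902 and 820 TPM and at 1058 in the active culture, and CXCL1, another chemokine gene, at 158, 174 and 142 and at 146. CCL2, the monocyte chemokine gene, stood at 7067, 7373 and 7747 and at 7464. Levels of CCL2 in all 4 NOTCH2KO cultures were above the highest in WT, 5451, and in NOTCH1KO, 3893. Of 14 genes of the IL6 family and its receptors 8 lay above and 4 below. IL6 stood at 414, 298 and 256 TPM and at 461, with a response of 0.54 against 1.67 and 1.71 in WT and NOTCH1KO.

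PTGS2 (COX-2), the inducible enzyme of prostaglandin synthesis, stood at 86.9, 49.0 and 111 TPM and at 190 in the active culture, 1.71 times the highest. Its active level was near that of NOTCH1KO, 181, and under that of WT, 234, and its response was 1.27 against 1.59 and 2.23. In contrast PTGER4, which encodes a receptor for prostaglandin E2, was lower, at 6.99, 5.54 and 6.36 and at 1.90. In the list of 8 prostaglandin genes 5 lay above and 2 below. Of 4 protease-activated receptors 2 lay above and 0 below. The thrombin receptor gene F2R stood at 65.8, 53.3 and 65.5 TPM and at 97.0 in the active culture, and F2RL1, which encodes a receptor cut by trypsin-like proteases, at 362.8, 259 and 315 and at 518. Both had responses in NOTCH2KO, 0.66 and 0.74, that were under those in WT, 0.91 and 1.12, and NOTCH1KO, 0.93 and 1.18.

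The study asked how Notch acts on the hypoxic response, in particular on HIF2α. EPAS1, the HIF2α gene, stood at 34.6, 19.2 and 42.3 TPM and at 60.3 in the active culture, 1.42 times the highest, and its response of 0.96 lay between 1.36 in WT and 0.71 in NOTCH1KO. Here the culture next to the active one was Jagged1 with DAPT, not Fc with DMSO. HIF1A stood at 289, 281 and 290 TPM and at 355. Of 14 HIF components 5 lay above and 2 below, and of 28 hypoxia-induced genes 13 and 3, with medians of 0.09 and 0.05. A short list held genes that the study tied to Notch and HIF2α, and was chosen here with earlier results of these data known. Its 4 examined genes came from other experiments of the study than these libraries. Of these, TGFB2 and VEGFA lay above the range, at 24.9 TPM against 15.3 to 19.6 and at 132 against 91.1 to 119, and NOTCH3 and ID3 lay inside it. Of 11 angiogenic factors 6 lay above and 0 below, none by 1.5-fold.

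Immediate-early and MAPK feedback genes, which follow growth factor signaling within minutes to hours, lay mostly above the range. Of 28 genes 21 lay above and 1 below, 5 of them by 1.5-fold above, with a median response of 0.30. After median centring 18 lay above and 2 below, 2 of them by 1.5-fold above, and by coverage 20 lay above. In WT 14 and in NOTCH1KO 12 of them lay above, with medians of 0.40 and 0.17. The shares above over all genes were 37.0% in NOTCH2KO, 32.0% in WT and 20.5% in NOTCH1KO. KLF9, a glucocorticoid-responsive transcription factor gene, stood at 11.6, 6.76 and 10.1 TPM and at 20.1 in the active culture, and EGR2, a zinc finger factor gene, at 2.56, 1.45 and 1.41 and at 4.86. DUSP6, which encodes a phosphatase that limits ERK, stood at 56.5, 41.4 and 52.2 and at 87.7. EGR1 stood at 16.4, 7.11 and 12.5 and at 24.9, and the AP-1 subunit genes FOSB and FOS at 3.13 and 5.09 in the active culture against at most 1.64 and 3.01. KLF9 was also far above the range in WT, with a response of 2.34 against 1.04 in NOTCH2KO, while EGR2 was not, with 0.14 in WT and -0.26 in NOTCH1KO. No difference in these responses between NOTCH2KO and the other genotypes passed the limma test.

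TGF-β and matricellular genes lay mostly above it as well. Of 17 genes 12 lay above and 1 below, 3 by 1.5-fold, with a median response of 0.51. In WT 5 and in NOTCH1KO 7 lay above, against 32.0% and 20.5% of all genes, with medians of 0.15 and 0.25. TGFBI, which encodes a matrix protein induced by TGF-β, stood at 1980.4, 1532 and 1592 TPM and at 3992 in the active culture, with a distance of 1.01 in log2 by TPM and 0.49 by coverage. TGFBR1, the type I receptor gene, stood at 41.3, 36.5 and 42.3 and at 62.0, INHBA, an activin subunit gene, at 406, 310 and 227 and at 540, and CTGF at 1013, 599 and 841 and at 1261. Distances of TGFBR3 and LTBP2, the other 2 genes past 1.5-fold, shrank from 0.77 and 0.67 by TPM to 0.17 and 0.05 by coverage. By coverage 13 of the 17 members lay above and 1 below, and after median centring 12 and 2. The order of the lists by their share above depended on the measure, as the TGF-β share was the higher of both after centring. Of 15 collagen IV and basement membrane genes 9 lay above and 2 below, and 12 and 0 by coverage, with COL4A1 at 58.9, 33.3 and 38.3 TPM and at 77.3. Of 18 matrix proteases and inhibitors 12 and 1 did, with MMP2 at 183, 145 and 175 and at 213, and after median centring 7 and 2. Matrix genes of the fibroblast list did not follow, as COL1A1 and COL1A2 lay inside the range.

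In the polyamine list 5 of 11 genes lay above and 2 below, led by SAT1, which encodes the enzyme that acetylates spermidine and spermine, at 44.9, 29.8 and 39.5 TPM and at 72.0 in the active culture. Of 12 hyaluronan genes 5 lay above and 3 below, with the synthase gene HAS2 at 21.1, 7.99 and 9.38 and at 26.8. Of 5 nicotinic receptor subunits 2 lay above and 2 below, and CHRNA5 was lower in the active culture, at 2.99 against 5.33 to 7.43. Of 19 WNT genes 7 lay above and 6 below. WNT5A, a non-canonical WNT ligand gene, stood at 95.2, 61.1 and 81.1 TPM and at 171, with 0.84 in log2 by TPM and 0.43 by coverage. Of 10 sonic hedgehog genes 6 and 3, of 14 BMP and ID genes 5 and 1, of 7 EGF family genes 3 and 1, and of 15 stress response genes 4 and 2 lay above and below. Interferon-stimulated genes had 15 above and 5 below of 30, and 15 and 9 after centring. Of 18 p53 targets 8 lay above and 5 below.

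More cholesterol synthesis genes lay below the range than above it. Of 16 cholesterol genes 9 lay below the range and 2 above, with a median response of -0.20, and none passed 1.5-fold. MVD stood at 21.1, 22.7 and 20.3 TPM and at 14.9 in the active culture, and LSS at 40.6, 47.6 and 43.4 and at 33.0. The medians in WT and NOTCH1KO were alike, -0.17 and -0.26. Of 30 cell cycle genes 10 lay below and 8 above in NOTCH2KO, with a median of -0.02, which gave no clear side. By coverage 11 lay above and 10 below, and after centring 6 and 12. In the other genotypes 14 and 15 lay below, in WT and NOTCH1KO, against 28.4% and 26.3% of all genes, with medians of -0.12 and -0.14. The replication helicase gene MCM5 stood at 92.6, 104 and 93.3 TPM and at 62.3, and TK1, the thymidine kinase gene, which was not in the list, at 94.3, 96.6 and 99.5 and at 39.2. MKI67, a proliferation marker gene, went the other way, at 41.3, 48.0 and 33.1 and at 66.8.

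**Figure D2:**
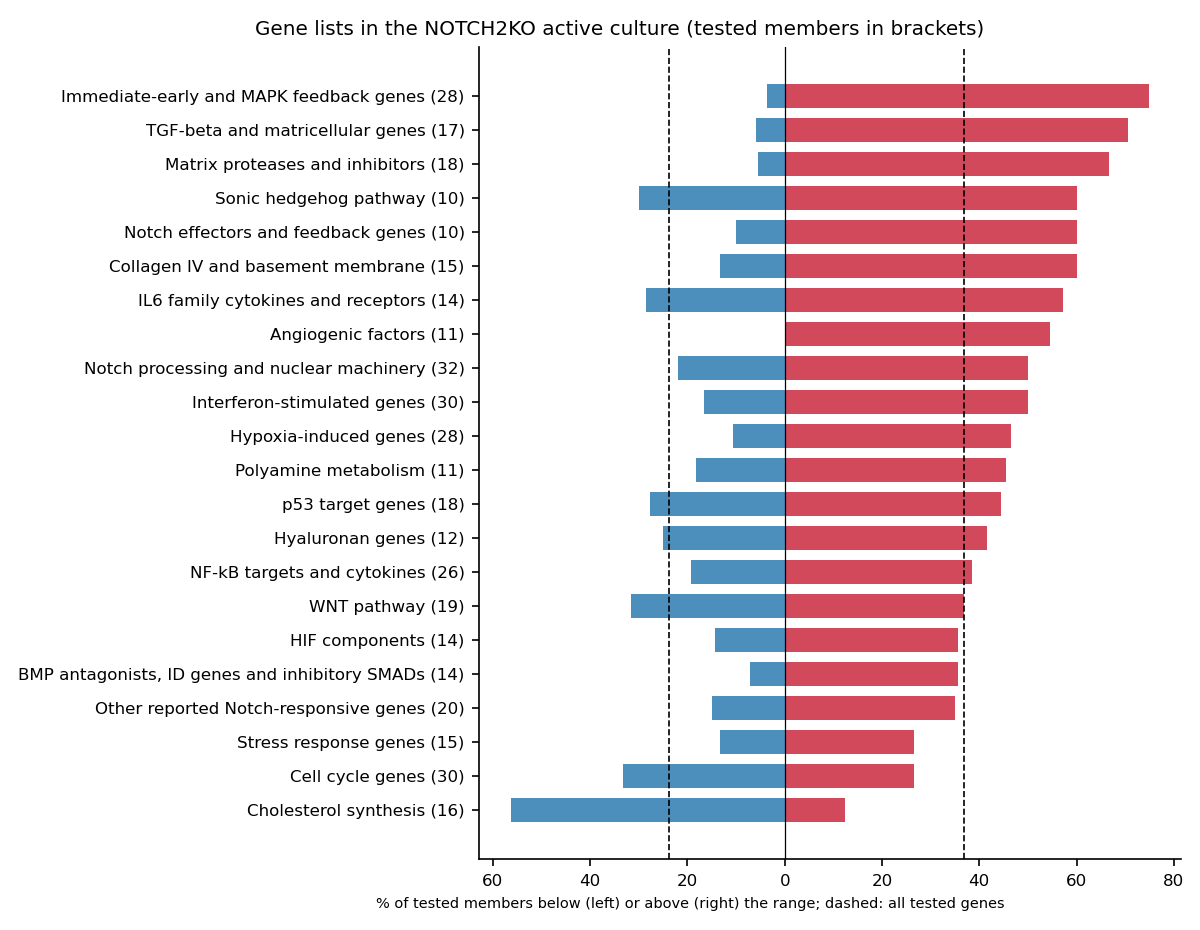
Share of the examined members of each gene list that lay below (left, blue) or above (right, red) the range of the 3 other NOTCH2KO cultures, with the number of members in brackets and dashed lines at the shares over all genes, 23.9% and 37.0%. Immediate-early genes (21 of 28 above) and cholesterol synthesis genes (9 of 16 below) stood at the ends of this order of TPM as deposited.

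The genes furthest from the range were mostly not those of the pathway. Among all 17621 genes 26.5% overlapped another expressed gene record on the same strand, whereas 36.7% of those above and 33.7% of those below by 1.5-fold did, and of the 66 above and 105 below by 2-fold 54.5% and 48.6% did. Reads in such stretches can be given to either record. Of the 278 genes above by 1.5-fold 258 were above by coverage too, 125 of them by 1.5-fold, and of the 294 below 271 were below, 183 by 1.5-fold. By the largest distances above, the rule named the read-through records TGIF2-C20orf24, HSPE1-MOB4 and C15orf38-AP3S2, then MRPL30, KCTD7, HYPK, EMR2, PCDHA2, ZBTB38, ZNF773, LRRC8D and SULF1. Without the active culture, its highest library, TGIF2-C20orf24 had a mean of only 0.304 TPM. C15orf38-AP3S2, MRPL30 and PCDHA2 likewise had means under 1 TPM without it. These records were thus examined only through the active culture, and their distances are a description. ZBTB38, which encodes a zinc finger protein that binds methylated DNA, stood at 29.8, 22.6 and 20.7 TPM and at 104 in the active culture, and the distance was larger by coverage, 2.72 against 1.77. LRRC8D, a volume-regulated anion channel subunit gene, stood at 20.9, 31.9 and 25.9 and at 91.7. EMR2, an adhesion receptor gene, stood at 0.367, 0.0303 and 0.496 and at 4.44, but at 4.90 and 5.05 in both Jagged1 cultures of WT.

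By the largest distances below, the rule named BLCAP, BAG5, GCSH, SYS1-DBNDD2, PDF, UCN2, MAGEA2B, PRNP, ARPC4-TTLL3, TFF2, TNFRSF6B and FAM27B. PRNP, the prion protein gene, stood at 173, 158 and 169 TPM and at 26.4 in the active culture, and fell by the limma test (response -2.61, adjusted p = 0.0194). In WT and NOTCH1KO PRNP lay between 80.1 and 146 in all 8 libraries. BLCAP stood at 69.1, 73.3 and 68.2 and at 0.952 (-5.19, limma adjusted p = 1.84e-06). BLCAP was also low in the WT active culture, at 18.2 against 56.4 to 65.7, but at 54.0 in that of NOTCH1KO. BAG5, which encodes a chaperone cofactor, stood at 35.3, 37.0 and 39.2 and at 0.570, and was at 0.602 in a different library of WT, the one on Fc with DMSO. The sources used here do not say how reads were shared between overlapping records, and the part of such sharing in these values was not tested.

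Some genes that passed 1.5-fold by both measures, chosen after their values were seen, are given next. NTN4, a laminin-related netrin gene, stood at 21.7, 33.8 and 37.4 TPM and at 82.3 in the active culture, 2.20 times the highest, and its response of 1.42 was near that of NOTCH1KO, 1.39, with 0.56 in WT. SCG2, which encodes a granin of secretory vesicles, stood at 1.55, 0.543 and 1.83 and at 6.58, 3.59 times the highest. The insulin-like growth factor binding protein genes IGFBP5 and IGFBP1 stood at 38.6, 10.8 and 22.7 and at 67.6, and at 8.66, 5.15 and 11.3 and at 20.4. Both were above the range in WT as well, with responses of 2.65 and 1.82 there against 1.62 and 1.25 in NOTCH2KO. On the low side NPPB, the B-type natriuretic peptide gene, stood at 11.5, 26.8 and 8.43 and at 3.53, and was listed at 0 in the active cultures of WT and NOTCH1KO. SNRPD2, a splicing factor gene, stood at 488, 534 and 473 and at 174.

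**Figure D3:**
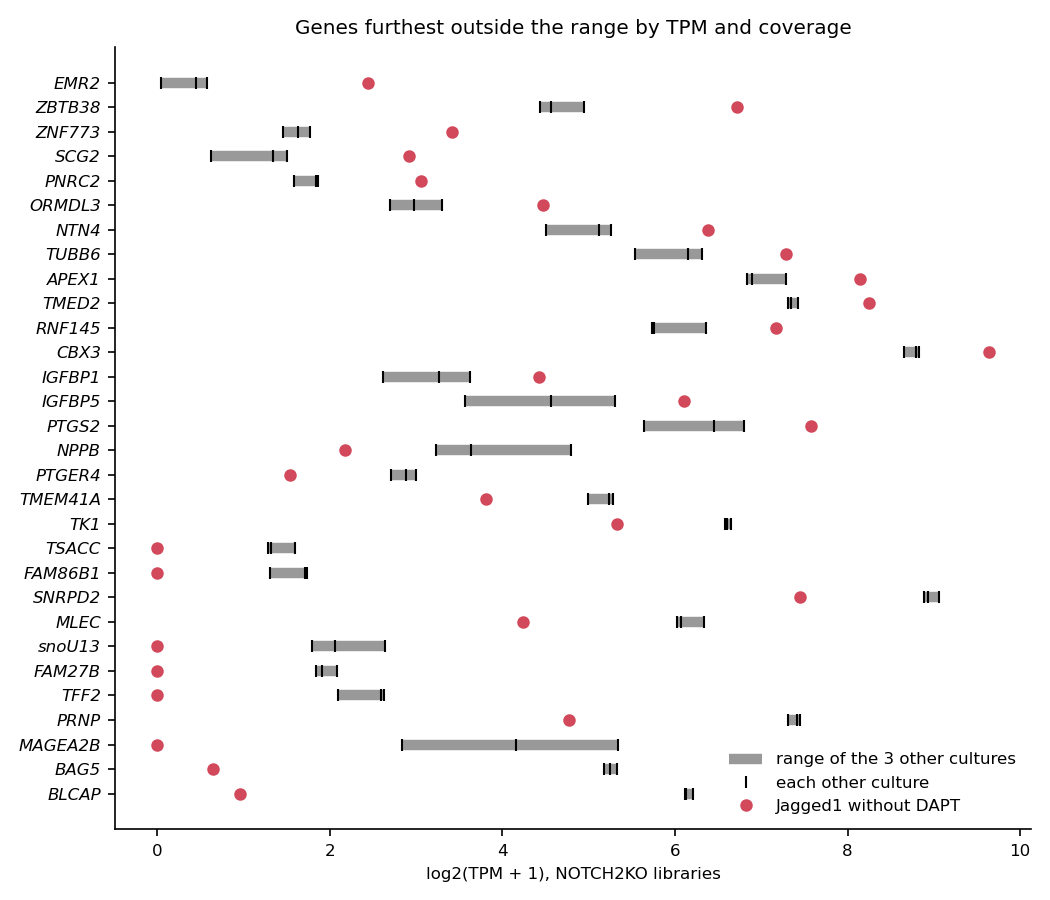
Level as log2(TPM + 1) in the 4 NOTCH2KO libraries of the 15 genes furthest above and the 15 furthest below the range among those past 1.5-fold by both measures. Records that overlapped another expressed record on the same strand were left out, among them TGIF2-C20orf24 and HSPE1-MOB4, which lay further out. A grey bar gives the range of the 3 other cultures, a tick each of them and a red point the active culture. PRNP stood at 26.4 TPM in the active culture against 158 to 173 in the 3 others, and ZBTB38 at 104 against 20.7 to 29.8.

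Of the 278 genes above the range by 1.5-fold in NOTCH2KO, 100 (36.0%) lay above it by any amount in WT and 81 (29.1%) in NOTCH1KO, against 32.0% and 20.5% of all genes. Of the 294 below, 100 (34.0%) and 81 (27.6%) lay below, against 28.4% and 26.3%. Of the 183 below by both measures, 48 (26.2%) and 45 (24.6%) did, which was under those shares. Among the 66 genes above by 2-fold the share in WT was 19.7%, under the background. Most genes past 1.5-fold in NOTCH2KO were thus not outside the range on the same side in either of the other genotypes taken alone. The same was true of most of all genes. With the 1.5-fold margin applied in the other genotype too, the overlap exceeded the background. Of the 278 above, 39 lay above by 1.5-fold in WT and 23 in NOTCH1KO, against 2.64% and 1.93% of all genes. On the opposite side lay 9 and 7 of the 278. Of the 294 below, 34 and 27 lay below by 1.5-fold, against 2.66% and 2.26%, and 11 and 8 above.

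The genes that distinguished the active cultures of WT and NOTCH1KO were then read in NOTCH2KO, whose libraries had no part in choosing them. In WT 306 genes lay above the range by 1.5-fold by TPM and by coverage. Of these 218 lay above in NOTCH1KO, 117 by 1.5-fold, and 169 lay above in NOTCH2KO, 31 by 1.5-fold, where the shares over all genes were 20.5% and 37.0%. The median response of the 306 genes was 0.70 in NOTCH1KO and 0.29 in NOTCH2KO, against -0.02 and 0.05 over all genes. The response was lower in NOTCH2KO than in NOTCH1KO for 226 of them (73.9%), and for 41.6% of all genes, with a median difference of -0.43 against 0.08. With 1 library for each culture these counts carry no test over samples. Some of the 306 genes, KRT3 among them, were at or near 0 in every NOTCH2KO library, where no response could be read.

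The 269 genes below the range in WT by both measures gave the same order with less separation. Of these 118 lay below in NOTCH1KO and 101 in NOTCH2KO, with medians of -0.29 and -0.10, where 26.3% and 23.9% of all genes lay below. Chosen in NOTCH1KO in place of WT, 222 genes lay above by both measures. Of these 156 lay above in WT and 113 in NOTCH2KO, against 32.0% and 37.0% of all genes, with medians of 0.91 and 0.28. Of the 124 genes chosen in NOTCH2KO itself, 43 lay above in WT (34.7% of them) and 38 in NOTCH1KO (30.6%), where the shares over all genes were 32.0% and 20.5%. By both measures 23 of the 124 were shared with the 306 of WT, which is 18.5% of the first list and 7.52% of the second. With the 222 of NOTCH1KO 15 were shared, which is 12.1% and 6.76%. Over all genes 1.74% lay above by both measures in WT, 1.26% in NOTCH1KO and 0.704% in NOTCH2KO.

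**Figure D4:**
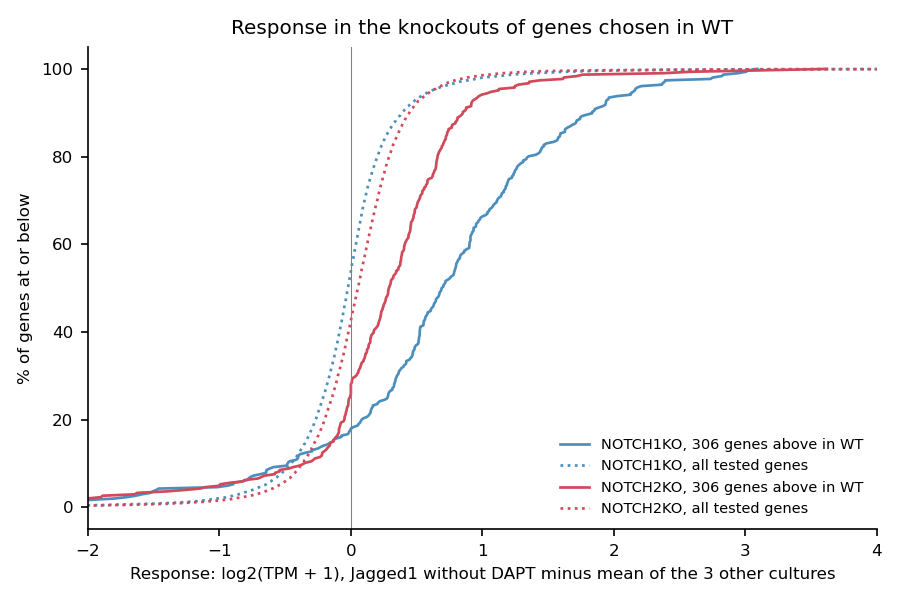
Cumulative share of genes (y axis, %) by response (x axis, active culture minus the mean of the 3 others, log2) for the 306 genes above the range in WT by both measures (solid) and for all genes (dotted), in NOTCH1KO (blue) and NOTCH2KO (red). The median of the genes above was 0.70 in NOTCH1KO and 0.29 in NOTCH2KO, against 0.05 over all genes in NOTCH2KO.

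A set of 101 genes, 85 of them coding for proteins, lay above the range in both WT and NOTCH1KO by both measures. In NOTCH2KO 70 of them lay above the range by any amount, 28 inside it and 3 below, where 37.0% of all genes lay above. Some passed the filter through the other genotypes and had no level to read in NOTCH2KO. AC093850.2 and KRT3 were listed at 0 in every NOTCH2KO library, SLC6A12 reached at most 0.0543 TPM and KRT75 at most 0.130. For such genes a place inside the range was fixed by the floor, and they lower the counts and the median response. By 1.5-fold 11 of the 101 lay above, against 1.58% of all genes. Their median response was 0.45 in NOTCH2KO, and 1.5 and 1.45 in WT and NOTCH1KO, which chose them. The active culture of NOTCH2KO stood above Fc with DMSO for 84 genes, above Jagged1 with DAPT for 80 and above Fc with DAPT for 83. The shares over all genes were not counted. The median distance was 0.38 in log2 over Fc with DMSO and 0.37 over Jagged1 with DAPT, against 0.06 and 0.04 over all genes. The level of the 101 genes in the NOTCH2KO active culture had a median of 1.21 in log2 under that of the WT active culture, and was lower for 96 genes. The corresponding medians were -0.31 on Fc with DMSO, -0.0005 on Fc with DAPT and -0.06 on Jagged1 with DAPT. Over all genes the medians against WT were 0.08 in the active culture and 0.05, 0.04 and 0.05 in these cultures. Part of the difference in the active culture follows from the choice, since the genes were taken for high levels in the WT active culture. In NOTCH1KO, which chose them as well, the median in the active culture was -0.39, against -0.04 over all genes.

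Retained members of the set included PTGS2, IGFBP1, IL11, KLF9, JAG1, HES1, SAT1, DUSP6 and F2RL1, which all lay above the range in NOTCH2KO. For other members, chosen after their values were seen, the level in the active culture was far under that of the other genotypes. VCAM1, an adhesion molecule gene of leukocyte binding, stood at 3.92, 4.78 and 7.21 TPM and at 8.43 in the active culture, against 204 and 77.4 in the active cultures of WT and NOTCH1KO. PDGFRB, the platelet-derived growth factor receptor β gene, stood at 6.26, 5.17 and 4.07 and at 7.34, against 73.3 and 66.0. Both lay above the range of the other NOTCH2KO cultures, by 0.20 in log2 each, near the 0.23 of IL11, and their responses were 0.62 and 0.45. Differences between the responses of NOTCH2KO and WT were -2.46 for VCAM1 and -2.80 for PDGFRB, and did not pass the limma test (adjusted p = 0.660 and 0.398).

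ELOVL7, a fatty acid elongase gene, stood at 11.3, 12.2 and 13.1 TPM and at 14.7 in the active culture, while WT had 83.4 in the active culture against 10.6 to 15.2 in the others. Its response was 0.25 in NOTCH2KO and 2.61 in WT, and the difference of -2.36 passed the limma test (adjusted p = 0.0225). The difference from the mean of WT and NOTCH1KO, -1.79, passed as well (limma adjusted p = 0.0418), but not with the culture as a block (limma adjusted p = 0.466). The next 3 genes had a mean TPM under 1 once their highest library was left out, so that they were examined only through the cultures where they were high, and their levels are a description. PPEF1, a calcium-binding phosphatase gene, was at most 0.113 in NOTCH2KO and reached 30.9 and 6.26 in the active cultures of WT and NOTCH1KO. C10orf128, an open reading frame on chromosome 10, was at most 0.159 in NOTCH2KO against 12.9 and 7.43 in the same cultures. ARHGAP36, whose product raises hedgehog signaling, was at most 0.291 against 18.7 and 3.84.

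Examples of matrix genes in the set, also chosen after their values were seen, did not share one pattern. COL5A3, a fibrillar collagen gene, stood at 0.690, 0.652 and 0.649 TPM and at 1.45 in the active culture, against 39.4 and 35.9 in the active cultures of WT and NOTCH1KO. COL3A1 stood at 4.83, 2.49 and 5.19 and at 4.90, against 45.7 and 10.7. The small leucine-rich proteoglycan gene FMOD was listed at 0 in 3 of the 4 NOTCH2KO cultures, the active one included, against 6.83 and 6.73, and LUM, of the same family, stood at 1.78, 2.16 and 2.22 and at 2.07, against 10.9 and 31.4. COL15A1, a basement membrane collagen gene, went another way, at 3.16, 2.19 and 3.87 and at 5.41, between the active cultures of WT and NOTCH1KO, 9.89 and 4.83. A further member, TNFSF10, which encodes the death ligand TRAIL, stood at 42.5, 40.5 and 39.9 and at 54.7, against 197 and 198.

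**Figure D5:**
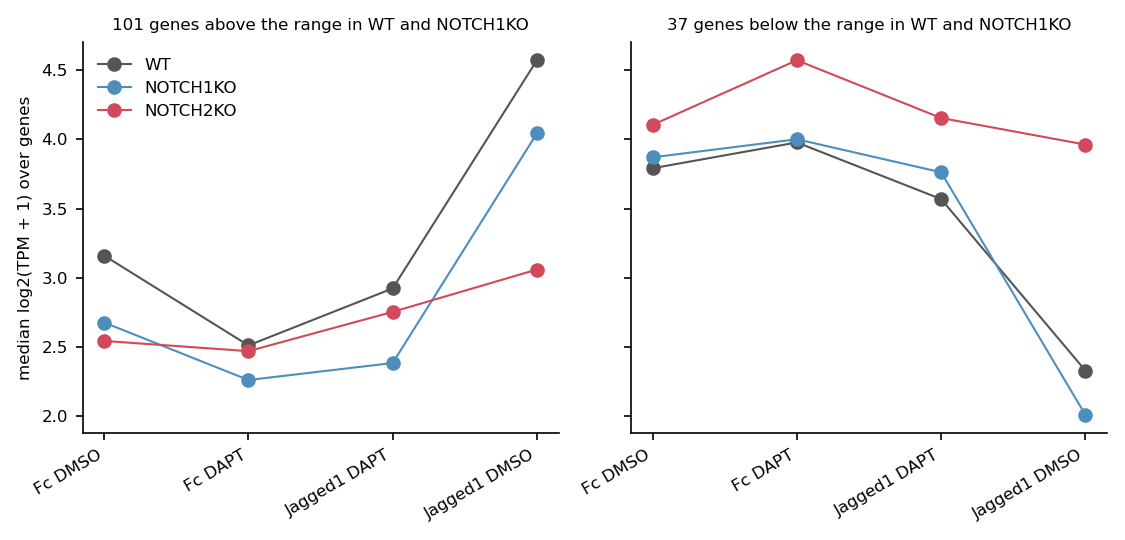
Median level, as log2(TPM + 1), of the 101 genes above (left) and the 37 genes below (right) the range in both WT and NOTCH1KO, in each of the 12 libraries, with lines joining the cultures of a genotype. On the left the NOTCH2KO active culture stood at 3.06, between its own other cultures (2.47 to 2.75) and the active cultures of NOTCH1KO (4.04) and WT (4.57).

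A further 37 genes lay below the range in both WT and NOTCH1KO by both measures. In NOTCH2KO 15 of them lay below, 19 inside and 3 above, against 23.9% of all genes below and 37.0% above. Their median response was -0.18, against -1.17 and -1.06 in the genotypes that chose them. MEST, an imprinted gene of the hydrolase family, stood at 418, 443 and 427 TPM and at 421 in the active culture of NOTCH2KO, and in WT at 125 in the active culture against 225 to 342. CALB2, the calretinin gene, stood at 26.9, 26.2 and 27.6 and at 24.4, and in WT at 6.15 against 10.8 to 19.0. The semaphorin gene SEMA3C stood at 45.8, 40.1 and 34.5 and at 44.7, and EDN1, the endothelin-1 gene, at 74.9, 70.3 and 54.6 and at 55.4, both inside the range.

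Across all genes the limma contrast between the responses of NOTCH2KO and WT called 14 higher (0.0795%) and 12 lower (0.0681%), with 933 at an unadjusted p under 0.05. That between NOTCH2KO and NOTCH1KO called 10 (0.0568%) and 9 (0.0511%), with 1204 unadjusted, and that between NOTCH2KO and the mean of both called 15 (0.0851%) and 18 (0.102%), with 1091. With the culture as a block this last contrast called 6 of the same genes, 2 higher and 4 lower. Of the Notch genes named above, no receptor, ligand or effector passed these tests.

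The 3 other cultures were not alike in being without active Notch, since Fc with DMSO left γ-secretase free. Of the 278 genes above the range by 1.5-fold, Fc with DMSO came next to the active culture for 93 (33.5%), and of the 294 below for 88 (29.9%). Over all genes Fc with DMSO lay above both DAPT cultures for 30% and below both for 34.0%. For the 101 genes chosen in the other genotypes, Fc with DMSO exceeded Fc with DAPT by a median of 0.09 in log2 in NOTCH2KO, against 0.51 in WT and 0.54 in NOTCH1KO.

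The label was checked against markers. Of 14 medulloblastoma and granule progenitor markers between 9 and 10 had at least 1 TPM in each NOTCH2KO library, and their summed level was 192 TPM in the active culture against 146 to 175 in the others. ZIC1, ZIC2, PAX6, OTX2 and SOX2 were among those present, while 3 of the 14 were listed at 0 in the active culture and 1 to 2 in the others. Of 9 blood and endothelial markers 1 (TEK) had at least 1 TPM, with a summed level of 8.40 to 10.8 in the 4 libraries, and PTPRC, CD3E, PECAM1 and VWF were listed at 0 in the active culture. The sums of 8 glial markers were 8.37 to 11.2, highest in the active culture, and those of 10 neuronal markers 105 to 136, lowest in it. Those of 9 epithelial markers, mostly KRT18 and KRT8, were 691 to 814, lowest in the active culture, and those of 9 fibroblast markers 850 to 1178, where it lay inside the range.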

How the data were processed

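RNA of DAOY cells was sequenced as single reads of 51 bases from poly-A selected, stranded TruSeq libraries, 1 for each of 3 genotypes in 4 cultures. Per the labels, bases were called with bcl2fastq 2.17 and CASAVA and GRCh37 was the genome. How reads were aligned, quantified and split between overlapping genes, and with which annotation, is not given in the sources used here. Values in TPM, as deposited by the authors, correct for gene length and sum to the same total in every library. The FPKM values deposited by the authors were scaled for length and depth. The coverage values deposited by the authors, a signal of mean read depth per base, were not scaled between libraries, and were divided here by their library sum. Coverage over FPKM gave the depth, which was 18.3 to 22.4 M reads per library. No counts were used, so that precision is limited by the single library per group. Between 10 and 18 repeated gene identifiers per table were summed.

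The 17621 genes (of 63677) whose mean TPM reached 1 were analysed as log2(TPM + 1), in Python 3.11.15 with pandas 2.3.3 and in R 4.3.3 with limma 3.58.1 with a mean-variance trend. The model held, for each genotype, a mean of the other 3 cultures and a response of the active culture. P-values were adjusted within each contrast by the method of Benjamini and Hochberg, at a threshold of 0.05. The fits were tested on simulated data. Genes were named if they were the 4 markers or the 4 receptors, among the 12 furthest above or below the range, up to 4 members of a list with the largest distance, or up to 6 with the smallest p in a test between genotypes. A gene that met this rule is not reported here. Clone names, antisense, long intergenic and small RNAs and pseudogenes were left out. Other genes in the text, among them those past 1.5-fold by both measures and the examples of genes chosen in WT and NOTCH1KO, were chosen after their values were seen. The culture, its markers and the 35 gene lists were chosen with earlier results of these data known. Types of genes were taken from GENCODE v29 (52526 identifiers matched). Promoters came from RefSeq (GRCh38.p14), and their coordinates were not joined to the GRCh37 tables. Windows matched 65 of the 101 genes above the range in both other genotypes, which is too small a share, so that a count of motifs in that set was void and is not given.

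Alternatives were a pseudocount of 0.1, FPKM or coverage in place of TPM, median-centred libraries, no filter or a mean TPM of at least 5, margins of 2-fold or of any amount, no variance trend, culture as a block, and leaving out in turn each library other than the active cultures (limma) or each of the other NOTCH2KO cultures (range). The margin by both TPM and coverage, the removal of overlapping records and the choice of genes in other genotypes were added with the values in view.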

Additional observations from a re-analysis of the deposited data

Results flagged for a closer look

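Flagged here are genes whose response to the active culture (active minus the mean of the 3 other cultures, log2) differed between NOTCH2KO and another genotype by a limma contrast. The adjusted p values measure only the spread of the 3 other cultures of each genotype, and causes were not tested. Of the 15 genes, 9 still had a mean TPM of at least 1 without their highest library. The other 6 (TGIF2-C20orf24, COMMD3-BMI1, POTEE, ARHGAP36, PPEF1 and C10orf128) were examined only through the library or libraries in which they were high, so that their p values support nothing. The p values of SPANXC, though it is among the 9, support nothing either, for a reason given with its levels below. With the culture as a block, which was fitted for the difference from the mean of both other genotypes, PRNP (adjusted p = 0.0280) was the only 1 of the 12 genes given below with that difference to pass, and the others had adjusted p values between 0.108 and 0.918.

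The genes with a response in WT that was not seen in NOTCH2KO were PPEF1, ELOVL7, ARHGAP36 and C10orf128. For PPEF1 the difference was -4.40 from WT (adjusted p = 0.0249) and -3.55 from the mean of WT and NOTCH1KO (0.0418). For ELOVL7 it was -2.36 (0.0225) and -1.79 (0.0418), and for ARHGAP36 -3.11 (0.0080) and -2.52 (0.0119). For C10orf128 it was -2.92 from the mean of both (0.0446). In NOTCH2KO the response of each of the 4 was between -0.08 and 0.25.

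Other differences turned on the level in the active culture of NOTCH2KO. TGIF2-C20orf24, a read-through record, differed by 5.74 from WT (adjusted p = 0.0051) and 4.72 from the mean of both (0.0073). BLCAP differed by -3.52 from WT (0.0002), -5.31 from NOTCH1KO (1.4e-05) and -4.42 from the mean of both (3.8e-05), PRNP by -2.75 from the mean of both (0.0321), and MLEC by -3.45 from WT (0.0249). For MLEC the levels were scattered in the other genotypes too, with 69.5 TPM in the WT active culture against 18.7 to 30.2 and 17.9 in that of NOTCH1KO against 41.0 to 68.0. FUNDC2 differed by -2.60 from NOTCH1KO (0.0060) and -1.93 from the mean of both (0.0136), with 7.66 TPM in the NOTCH2KO active culture and 27.5 in that of NOTCH1KO. ZMYND8 differed by 1.24 from the mean of both (0.0418).

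The rest turned on the active culture of another genotype. ZNF768 differed by 4.43 from WT (adjusted p = 0.0001) and 2.34 from the mean of both (0.0015), RHNO1 by 1.65 from NOTCH1KO (0.0346), COMMD3-BMI1 by -3.87 from WT (0.0004) and -1.93 from the mean of both (0.0136), and POTEE, one of a family of near-identical copies, by -3.25 from WT (0.0029). SPANXC, of a family of near-identical copies, differed by -3.51 from NOTCH1KO (0.0001) and -1.71 from the mean of both (0.0052). It was listed at 0 in all WT libraries and in 3 of NOTCH1KO, and stood at 171 to 188 TPM in NOTCH2KO.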

How the results depend on the processing

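No named gene past 1.5-fold changed sides under an alternative. The split of all genes outside the range did turn, from 60.8% above as deposited to 46.5% after median centring, and the share of genes above that lay above in WT was 28.5% with FPKM and 19.7% by 2-fold, where 32.0% of all genes did by TPM. Of the alternatives for counts and shares 108 stayed within 1.5 times the reported value and 27 did not. The labels give no replicate numbers by which to pair libraries, and each group had 1 library. The cultures shared by the genotypes were used as a block instead. In that fit the contrast of NOTCH2KO with the mean of both other genotypes called 6 genes, 2 higher and 4 lower, in place of 33, and all 6 were among the 33.

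Genes above the range by 1.5-fold (278) numbered 151 with FPKM, 531 with no filter on low values, 172 at a mean TPM of at least 5, 66 by 2-fold, 6512 by any amount, 124 by TPM and coverage both and 176 without overlapping records. Those below (294) numbered 173 at a mean TPM of at least 5, 105 by 2-fold, 4206 by any amount, 183 by both measures and 195 without overlaps. Leaving out each of the other NOTCH2KO cultures in turn gave 429 to 560 above and 421 to 546 below, and could not give fewer than with all of them.

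With limma, the 19 genes called in the active culture numbered 44 with coverage (14 higher and 30 lower) and 406 with no filter on low values (372 and 34). For the response in NOTCH2KO minus WT, 26 became 51 with coverage and 659 with no filter. For NOTCH2KO minus NOTCH1KO, 19 became 44 with coverage and 620 with no filter, and for NOTCH2KO minus the mean of both, 33 became 795 with no filter, 428 of them lower. The causes were not tested. Leaving out in turn each library other than the active cultures gave 12 to 21 calls in the active culture, 21 to 30 against WT, 16 to 28 against NOTCH1KO and 22 to 38 against both. The lowest of each range came without the NOTCH2KO library on Fc with DAPT. The shares on the same side ranged over 35.9% to 41.6% (above) and 34.4% to 37.9% (below) for WT, and 27.3% to 32.8% and 24.7% to 29.6% for NOTCH1KO.

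Of the values of single named genes, 1387 kept their side of the 1.5-fold margin, 45 came to pass it and 24 no longer did. Of the 45, 16 came without Fc with DMSO, 10 without Jagged1 with DAPT and 4 without Fc with DAPT. In those settings no value could fall back inside the margin. Without Fc with DMSO, IL11 and JAG1 lay 1.5 and 1.13 in log2 above the range. With FPKM or coverage CHRNA9 lay 0.58 and 0.57 above it.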

Other observations

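Further genes past 1.5-fold by both measures, chosen after their values were seen, are given here. CBX3, a heterochromatin protein gene, stood at 443, 401 and 454 TPM on Fc with DMSO, Fc with DAPT and Jagged1 with DAPT and at 796 in the active culture. APEX1, a base excision repair gene, stood at 155, 118 and 113 and at 283, and TMED2, a vesicle cargo receptor gene, at 161, 158 and 171 and at 303. In NOTCH1KO the active culture also had more CBX3, 774 TPM against 453 to 529, while WT had 414 against 370 to 408. The tubulin gene TUBB6 stood at 45.5, 78.3 and 70.3 in NOTCH2KO and at 155, but ranged from 53.2 to 168 in WT with the lowest level in the active culture. These values have no replicate check.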
